A study of Mus musculus with 4 samples.

Results

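A group of 10 G protein-coupled receptors (GPCRs) through which hormones, fatty acids and transmitters act on pancreatic beta cells were followed after depletion of NF45. They were chosen by symbol, and 9 of the 10 had a probe set that names only that gene: Oxtr, Avpr1b, Glp1r, Gipr, Gcgr, Ffar1, Chrm3, Sstr2 and Galr1. Each of the 9 had 1 such probe set, out of 22180 genes named in this way on the array. The remaining one, Adra2a, is not analysed here.

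The cells were Beta-TC-6, a mouse beta cell line grown in medium with 25 mM glucose and serum. In the siNF45 group (2 samples) they received a lipid-delivered mixture of 3 RNAi duplexes against NF45, the product of Ilf2, which binds double-stranded RNA in a complex with a partner protein. In the siNTC group (2 samples) they received a non-targeting siRNA. Both groups were thus transfected, and all samples come from the same line, so they describe that line rather than islets. Each sample's total RNA was hybridised to its own Affymetrix Mouse Gene 2.1 ST array. Whether the samples of a group were transfected separately is not stated, so the spread behind every p-value may be technical.

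Beta cell GPCRs set how much insulin is released at a given glucose level. Receptors that couple to Gs raise cyclic AMP, and the incretin receptors for GLP-1 and GIP are the best known of them. Receptors that couple to Gq activate phospholipase C and release calcium from stores, as the muscarinic receptor Chrm3 and the fatty acid receptor Ffar1 do. Receptors that couple to Gi lower cyclic AMP and hold secretion back, as those for somatostatin and galanin do.

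The 4 arrays had medians over all probe sets of 1.64 to 1.66 on the log2 scale. Over the tested genes the medians were 3.82 and 3.76 in siNTC and 3.72 and 3.60 in siNF45, lower on both siNF45 arrays. Ilf2 itself read 5.79 and 5.98 in siNTC and 3.67 and 3.77 in siNF45. It fell by 2.17 on the log2 scale (SE 0.13, limma adjusted p = 0.020), with an exact two-sided permutation p of 0.333. That is the smallest p that 2 arrays against 2 allow, and no receptor can go below it by that test. Of 11 beta cell markers with a probe set, 10 were above background, the exception being Ucn3, and Ins2 read 7.94 and 7.60 in siNTC and 7.92 and 7.97 in siNF45. Of 20 markers of immune, vessel, mesenchymal, duct and exocrine cells, 2 were above background (Krt7 and Cd68). Of 4 alpha cell markers with a probe set, 3 were above background and all 4 lay below 0, as did 7202 of the 11742 tested genes. At an unadjusted limma p under 0.05, 2 of them were lower in siNF45, where 13.2% of all tested genes were. These were Irx1, near background (difference -0.55), and Irx2 (-0.39). Some markers moved with the groups without passing. Krt7, of duct cells, read 3.41 and 3.13 in siNTC and 3.91 and 3.96 in siNF45 (limma adjusted p = 0.132), and the beta cell marker Pcsk1 read 7.01 and 7.14 in siNTC and 6.62 and 6.66 in siNF45 (limma adjusted p = 0.180). Of 3 markers of delta and PP cells, Sst read 8.07 to 9.19 and was lower in siNF45 by 0.89, Ppy differed by 0.52 the other way, and Hhex was at background. Krt7, Pcsk1, Cd68, Ucn3, Ppy, Hhex, Irx1 and Irx2 were picked after their values were seen. The part of these markers in the receptor results was not tested. In bulk RNA, fewer cells with a transcript and less transcript per cell cannot be told apart.

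No detection call was used. Background was read instead from 1440 probe sets of odour, pheromone and taste receptors, which a beta cell line is not known to use as a class and which, like the 9 genes here, encode GPCRs. The 95th percentile of their mean values was 1.77 on the log2 scale, and a receptor was called above background past that limit. Below 1.65, the median of all probe sets, a receptor was called at background and was not tested. By these limits 6 of the 9 receptors were above background (Glp1r, Gipr, Oxtr, Ffar1, Chrm3 and Galr1), Sstr2 was near it, and Avpr1b and Gcgr were at background. Gipr and Chrm3, with means of 2.89 and 2.63, would fall short of the 99th percentile, 3.03.

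**Figure D1:**
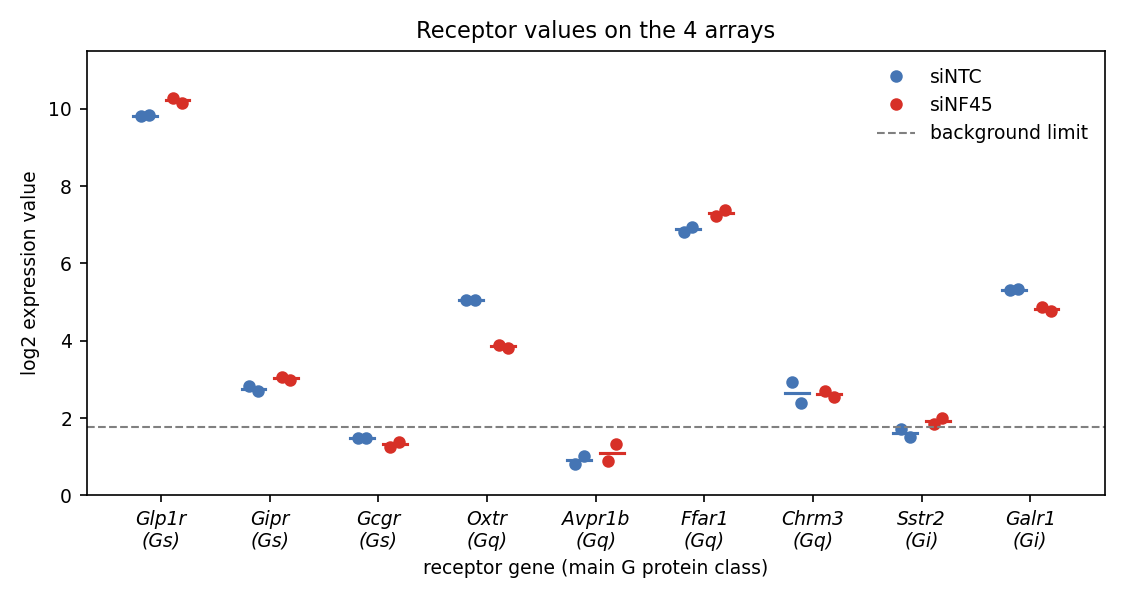
Log2 expression value (y axis) of the 9 receptors on each array, with siNTC in blue and siNF45 in red. Each point is 1 array, each short bar the mean of 2 arrays, and the dashed line the background limit of 1.77. Glp1r and Ffar1 lie far above the limit, Gcgr and Avpr1b lie below it, and Oxtr shows the widest gap between the groups.

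None of the 7 receptors that could be tested passed at a limma adjusted p of 0.05, where 0.0852% of the 11742 tested genes did (0.0766% lower and 0.00852% higher). At an unadjusted p under 0.05 there were 4 of 7, Oxtr and Galr1 lower and Glp1r and Ffar1 higher in siNF45, against 17.2% of all tested genes (13.2% lower and 4.02% higher). Without siNTC replicate 1 that count was 2, Oxtr and Galr1. The arrays of the 2 groups did not overlap for 6 of the 7 tested receptors, 4 of them higher and 2 lower in siNF45. Among all tested genes this was so for 47.8% (32.6% lower and 15.2% higher). The median difference of the 7 was 0.27, and that of all tested genes -0.07. These counts describe 7 genes chosen with earlier results of the same arrays known. Every difference given is the siNF45 mean less the siNTC mean, in log2 units.

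**Figure D2:**
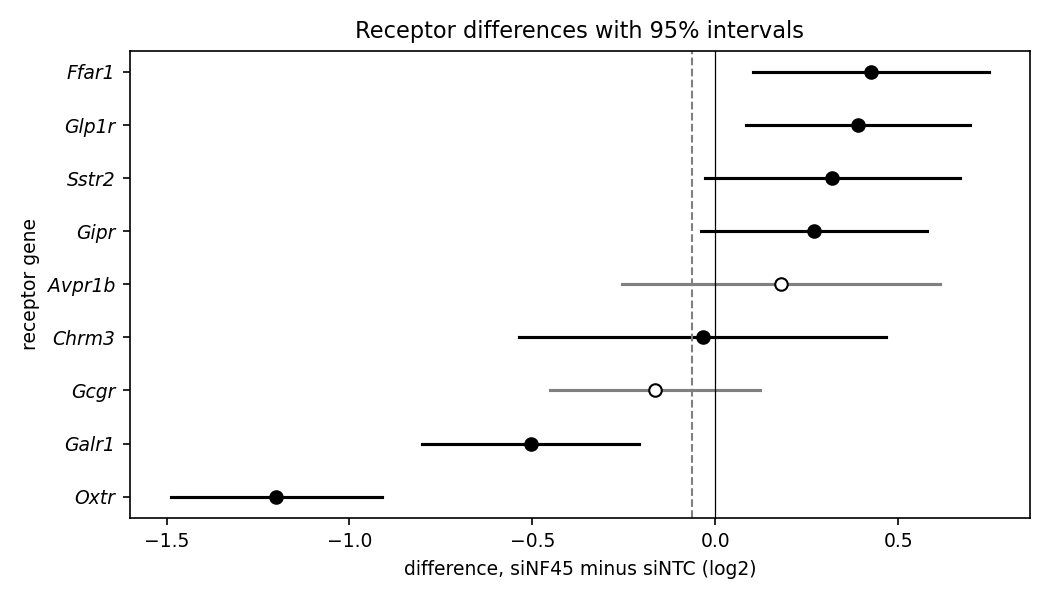
Difference between siNF45 and siNTC in log2 units (x axis) for the 9 receptors (y axis), with bars for the 95% interval of the limma fit. Filled points are the 7 tested receptors, and open points are Avpr1b and Gcgr, whose intervals come from a fit without the filter on low values. The dashed line marks the median of all tested genes, -0.07. Oxtr at -1.20 and Galr1 at -0.51 have intervals below 0, and Ffar1 at 0.43 and Glp1r at 0.39 have intervals above 0.

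The start regions of Oxtr and Glp1r are shown because these receptors read in opposite directions, and because RefSeq lists a start for each (7 of the 10 receptors have an entry in that table). The 250 bases before that start are given 5′ to 3′ on the gene's strand, from build GRCm38.p6, at chr6:112489826-112490075 on the minus strand for Oxtr and chr17:30901617-30901866 on the plus strand for Glp1r. Capitals mark matches to the E-box CACGTG and to the GC box GGGCGG, searched on both strands.
Oxtr: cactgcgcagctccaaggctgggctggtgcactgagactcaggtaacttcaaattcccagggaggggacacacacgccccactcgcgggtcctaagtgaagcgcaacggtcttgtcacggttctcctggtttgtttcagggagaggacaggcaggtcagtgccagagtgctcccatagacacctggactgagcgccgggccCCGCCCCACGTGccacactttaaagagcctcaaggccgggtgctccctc
Glp1r: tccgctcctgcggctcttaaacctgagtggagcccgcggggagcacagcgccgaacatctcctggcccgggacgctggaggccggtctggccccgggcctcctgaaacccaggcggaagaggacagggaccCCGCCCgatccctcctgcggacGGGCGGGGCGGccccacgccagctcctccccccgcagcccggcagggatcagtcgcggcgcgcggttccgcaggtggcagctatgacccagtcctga

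The Oxtr window held 1 CACGTG, 43 to 38 bases before the start, directly after 1 GC box on the other strand. CACGTG occurs in 6.02% and a GC box in 32.7% of the 32851 promoter windows of this length. The Glp1r window held 3 GC boxes, of which 2 share a base, and no CACGTG. Other forms of the E-box were not searched for and are not in capitals. Both were richer in G and C than the median window (52.4%), at 61.6% for Oxtr and 73.2% for Glp1r, with 12 and 26 CpG dinucleotides. Neither window held the cyclic AMP response element TGACGTCA (1.55% of windows), its half-site TGACG (17.8%), the NFAT core GGAAA (55.6%), CCAAT (33.8%) or TATAAA (12.4%). The motifs were picked after the sequences had been seen. A match describes letters only, and the arrays hold no measure of binding.

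Among the receptors that couple to Gs, Glp1r was read far above background and slightly higher in siNF45. Glp1r encodes the receptor for glucagon-like peptide 1, through which incretin drugs act. It read 9.82 and 9.83 in siNTC and 10.29 and 10.14 in siNF45, so the lower siNF45 array lay above both siNTC arrays. The difference was 0.39 (SE 0.12, 95% interval 0.08 to 0.70), or 1.31-fold (limma adjusted p = 0.216). That difference is larger than the spread of either group, whose SD was 0.01 in siNTC and 0.11 in siNF45 (n = 2 each), yet it did not pass over all genes. It passed in 1 of 12 other settings, where the spread was allowed to vary with signal (limma adjusted p = 0.047).

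Gipr, the receptor for the other incretin, GIP, had a mean 1.12 log2 units over the background limit. It read 2.82 and 2.69 in siNTC and 3.07 and 2.98 in siNF45, without overlap. The difference of 0.27 (SE 0.12) had a 95% interval of -0.04 to 0.58 and a limma adjusted p of 0.340. Gcgr, the glucagon receptor, read 1.49 and 1.48 in siNTC and 1.26 and 1.38 in siNF45. All 4 values lie under the background limit, so no fold is given. Both incretin receptors thus read higher on the siNF45 arrays than on the siNTC arrays, and neither passed.

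Oxtr had the largest difference of the receptors that couple to Gq, and of all 9. It encodes the oxytocin receptor, which signals through phospholipase C and is known to be present in islets. It read 5.05 and 5.05 in siNTC and 3.88 and 3.82 in siNF45, so the 2 siNTC values were equal to the second decimal and the siNF45 values lay more than 1 log2 unit below them. The difference was -1.20 (SE 0.12, 95% interval -1.49 to -0.91), or 2.30-fold, with an unadjusted p of 6.78e-05 and a limma adjusted p of 0.062. By p it ranked 12 among all tested genes. The limma fit pools the spread of both groups, to which the equal siNTC values added 0. It then draws each gene's spread towards that of other genes, so the SE of 0.12 rests largely on those genes. In 4 of 12 other settings the adjusted p was under 0.05, and over all 12 it ran from 0.013 to 0.471 while the difference stayed between -1.23 and -1.07.

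Avpr1b, a vasopressin receptor of the same family as Oxtr, was at background. It read 0.82 and 1.02 in siNTC and 0.88 and 1.32 in siNF45, with the groups overlapping. Avpr1a and Avpr2, the other vasopressin receptors, were not bright enough to be tested either.

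Ffar1 encodes the receptor for long-chain fatty acids that amplifies glucose-stimulated insulin release. It read 6.81 and 6.95 in siNTC and 7.23 and 7.38 in siNF45, again without overlap. The difference was 0.43 (SE 0.13, 95% interval 0.10 to 0.75), or 1.34-fold (limma adjusted p = 0.207). Among its relatives, Ffar4, which also binds long-chain fatty acids, read 4.96 and 4.72 in siNTC and 4.44 and 4.37 in siNF45, a difference of -0.44 (SE 0.14, limma adjusted p = 0.213). Ffar3, a receptor for short-chain fatty acids, differed by -0.14 (SE 0.13), and by -0.25 without siNTC replicate 1 and -0.02 without siNTC replicate 2. Whether Ffar1 and Ffar4 differ from each other in their response was not tested.

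Chrm3, the muscarinic receptor through which acetylcholine acts on beta cells, did not differ between the groups beyond its spread. It read 2.92 and 2.38 in siNTC and 2.69 and 2.54 in siNF45, so the siNF45 arrays lay between the siNTC arrays. The difference was -0.04 (95% interval -0.54 to 0.47), the widest interval of the 7. Its sign turned under 4 of 11 other settings, among them quantile normalization (0.02) and centring of the arrays (0.10).

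Among the receptors that couple to Gi, Galr1 read lower in siNF45. It encodes a receptor for galanin, a neuropeptide that inhibits insulin release. It read 5.31 and 5.33 in siNTC and 4.87 and 4.76 in siNF45, with every siNF45 array below every siNTC array. The difference was -0.51 (SE 0.12, 95% interval -0.80 to -0.21), or 1.42-fold (limma adjusted p = 0.145). It did not pass in any of 12 other settings, where the adjusted p ran from 0.081 to 0.471.

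Sstr2, a somatostatin receptor, was the member on the edge of detection. It read 1.71 and 1.5 in siNTC and 1.84 and 2.01 in siNF45, around a mean of 1.77 that falls just short of the unrounded background limit. The siNTC mean of 1.61 lies under that limit and the siNF45 mean of 1.93 over it, so a fold is not given. The fitted difference was 0.32 (SE 0.14, limma adjusted p = 0.321), with a 95% interval of -0.03 to 0.67 that includes 0. Of its relatives, Sstr3 and Sstr5 were above background. Sstr3 differed by -0.06 (SE 0.17) and Sstr5, which read 2.03 and 1.84 in siNTC and 2.13 and 2.30 in siNF45, by 0.28 (SE 0.14, limma adjusted p = 0.368), or 0.19 without siNTC replicate 2.

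Genes whose 4 values moved most like those of a member were looked for among all tested genes, by the distance between values centred on each gene's own mean. The nearest to Oxtr were Fbxo10 at a distance of 0.07, with a difference of -1.16, Rhou at 0.07 with -1.19, and Mir325 at 0.13 with -1.08. The nearest to Galr1 were Slc22a23 at 0.01 with a difference of -0.50, Mllt6 at 0.02 with -0.52, and Slc27a4 at 0.03 with -0.51. With 4 arrays in 2 groups, such likeness says little beyond a shared size of difference and narrow spread.

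The genes of the receptors' peptide ligands were read on the same arrays. Of 7 ligand genes, 5 were bright enough to be tested, 1 fell, none rose and 4 did not pass, where 0.0766% of all tested genes fell and 0.00852% rose. Gal, which encodes galanin, the ligand of Galr1, read 4.42 and 4.64 in siNTC and 2.82 and 2.60 in siNF45. It fell by 1.82 on the log2 scale (SE 0.15, limma adjusted p = 0.038), or 3.53-fold. Gal lost its call with the replicate number as a block (limma adjusted p = 0.258) and with any 1 array left out, and kept its direction in each. Neither change could have turned its sign, since the block leaves the difference unchanged and the groups do not overlap. Galanin and its receptor thus both read lower in siNF45, with the ligand past the threshold and the receptor not.

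Sst, the ligand gene of the somatostatin receptors, read 9.19 and 8.83 in siNTC and 8.18 and 8.07 in siNF45. The difference of -0.89 (SE 0.16) had a limma adjusted p of 0.103. Gcg, from which both glucagon and GLP-1 are made, read 7.75 and 7.43 in siNTC and 7.61 and 7.53 in siNF45, a difference of -0.02 (95% interval -0.39 to 0.35). Gip differed by -0.21 (SE 0.20), with the groups overlapping, and by -0.47 without siNTC replicate 1 and 0.045 without siNTC replicate 2. Avp, the vasopressin gene, read 1.68 and 1.69 in siNTC and 1.86 and 1.87 in siNF45, on either side of the background limit. Oxt, the oxytocin gene, read 1.03 to 1.35 over the 4 arrays, and Cort, which encodes cortistatin, 0.87 to 1.35, both at background.

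**Figure D3:**
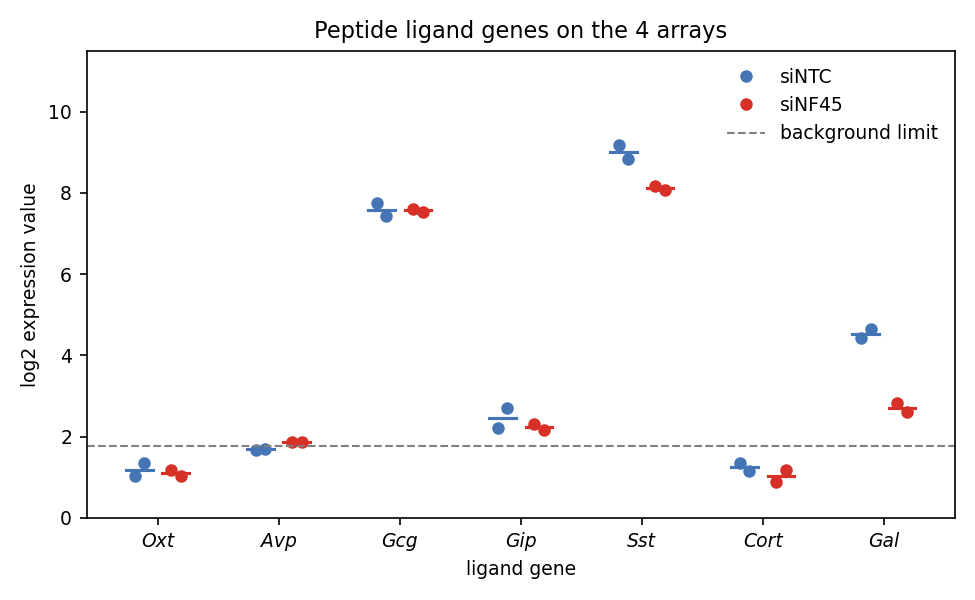
Log2 expression value (y axis) of the 7 peptide ligand genes on each array, drawn as for the receptors, with siNTC in blue, siNF45 in red, bars for means of 2 arrays and the background limit of 1.77 dashed. Gal reads 4.42 and 4.64 in siNTC and 2.82 and 2.60 in siNF45, Sst is also lower in siNF45, and Oxt and Cort lie under the limit in all 4 arrays.

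Genes for making and loading transmitters were few above background. Of 8, 3 were tested and none passed. Slc18a1, a vesicular monoamine transporter, read 3.27 and 2.58 in siNTC and 3.95 and 3.90 in siNF45, a difference of 1.00 (SE 0.24, limma adjusted p = 0.144) that was 0.66 without siNTC replicate 2. Ddc, which makes dopamine and serotonin from their precursors, differed by 0.36 (SE 0.13), and Th, the first enzyme of catecholamine synthesis, by -0.15 (SE 0.13), or -0.22 to -0.08 with 1 array left out. Chat, the enzyme that makes acetylcholine, was among the 5 genes at background, so the source transcript for the Chrm3 ligand was not seen at this limit. Another of the 5, Dbh, which makes noradrenaline, read 2.19 and 1.82 in siNTC, over the limit, and 1.25 and 1.08 in siNF45, so its mean over the 4 arrays fell short of the filter. It was picked after its values were seen, and without the filter its difference was -0.84 (limma adjusted p = 0.167).

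Close relatives of the members and other GPCRs known from islets gave no call either. Of 22 relatives with a probe set, 9 were tested, none passed, and their median difference was -0.06. Of 67 other islet GPCRs with a probe set, 25 were tested, none passed, and their median was 0.06. With no adjustment, 3 were higher and 4 lower at p under 0.05, where 4.02% of all tested genes were higher and 13.2% lower. Cckbr, the receptor for gastrin and cholecystokinin, read 3.50 and 3.72 in siNTC and 2.48 and 2.25 in siNF45. Its difference of -1.25 (SE 0.15, limma adjusted p = 0.071) was close in size to that of Oxtr. Cnr1, a cannabinoid receptor, differed by -0.68 (SE 0.13, limma adjusted p = 0.124). Gpr142, a receptor for aromatic amino acids, differed by 0.59 (SE 0.13, limma adjusted p = 0.134).

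The signalling parts behind the receptors were mostly above background. Differences of the tested genes ran from -0.48 to 0.24 for G protein subunits. They ran from -0.59 to 0.60 for regulators of receptors and G proteins, and from -0.50 to 0.90 for Gq effectors. All 20 tested G protein subunits were above background, none passed, 6 lay above 0 and 14 below, and the median was -0.07, equal to that of all tested genes at this rounding. Gna12, an alpha subunit, differed by -0.48 (SE 0.12, limma adjusted p = 0.155). Gnaq, the alpha subunit that gives the Gq class its name, read 6.87 and 6.77 in siNTC and 6.42 and 6.63 in siNF45, a difference of -0.30 (SE 0.13, limma adjusted p = 0.336). Without siNF45 replicate 1 the Gnaq difference was -0.19. Gng5, a gamma subunit, differed by 0.24 (SE 0.16), and by 0.42 without siNTC replicate 1, 0.06 without siNTC replicate 2 and 0.098 with its probe sets averaged.

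Of 20 tested genes that regulate receptors or G proteins (receptor kinases, arrestins, RGS proteins and others), none passed and the median was -0.05. With no adjustment, 1 was higher and 5 lower at p under 0.05, beside 4.02% higher and 13.2% lower among all tested genes, so lower values were the more common among all genes too. Grk6, a receptor kinase, read 4.33 and 4.22 in siNTC and 3.66 and 3.73 in siNF45, a difference of -0.58 (SE 0.12, limma adjusted p = 0.130). Rgs7, which speeds the switching-off of Gi and Go proteins, differed by -0.44 (SE 0.14). Gpsm1, which holds Gi alpha subunits in their inactive form, differed by -0.45 (SE 0.14).

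Of 20 tested effectors of the Gq pathway, none passed, 15 lay below 0, 4 above and Prkce at 0.00, with a median of -0.20. Of the 11742 tested genes, 7202 lay below 0 and 4434 above. With no adjustment, 1 effector was higher and 4 were lower at p under 0.05, beside the same 4.02% and 13.2%. Trpm5, a calcium-activated cation channel of beta cells, read 2.88 and 2.69 in siNTC and 3.59 and 3.77 in siNF45, a difference of 0.90 (SE 0.14, limma adjusted p = 0.085). The protein kinases C Prkcd and Prkca differed by -0.47 (SE 0.13, limma adjusted p = 0.189) and -0.40 (SE 0.13, limma adjusted p = 0.225).

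**Figure D4:**
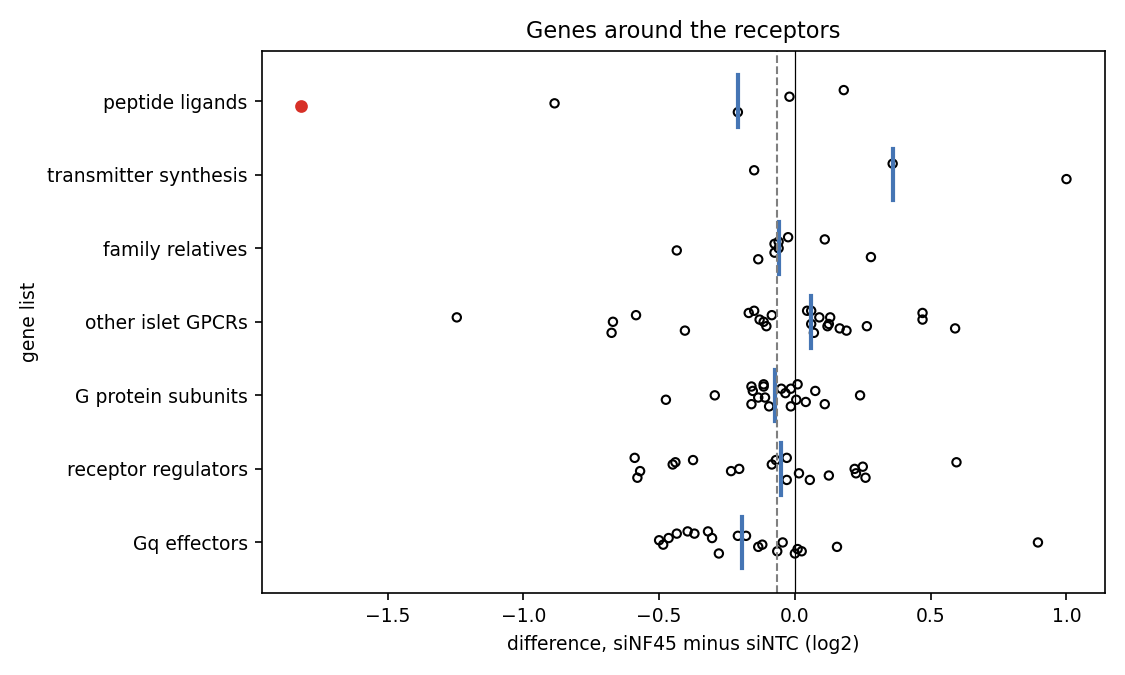
Difference between siNF45 and siNTC in log2 units (x axis) for tested genes of the 7 lists around the receptors (y axis). Each circle is a gene, a filled red circle a gene past the adjusted threshold, the blue bar the list median and the dashed line the median of all tested genes, -0.07. Gal at -1.82 is the filled point, and the median of the Gq effectors, at -0.20, lies to the left of the dashed line.

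How far each receptor's difference depended on the processing was followed over up to 12 other settings. Every tested receptor other than Chrm3 kept its direction in all settings in which it was tested. For these receptors only quantile normalization and centring could have turned a sign. The filters, the eBayes options, the block and averaged probe sets leave their differences unchanged. Leaving out 1 array cannot turn a sign where the groups do not overlap. Ffar1 ranged from 0.35 to 0.56, Glp1r from 0.32 to 0.52, Sstr2 from 0.22 to 0.45, Gipr from 0.21 to 0.40 and Galr1 from -0.56 to -0.38. Centring each array on the median of its tested genes adds 0.13 to every difference and gave the highest value for each of these 5 receptors. Gipr and Sstr2 then reached an unadjusted p under 0.05 as well (0.018 and 0.019), with limma adjusted p of 0.182 and 0.188.

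**Figure D5:**
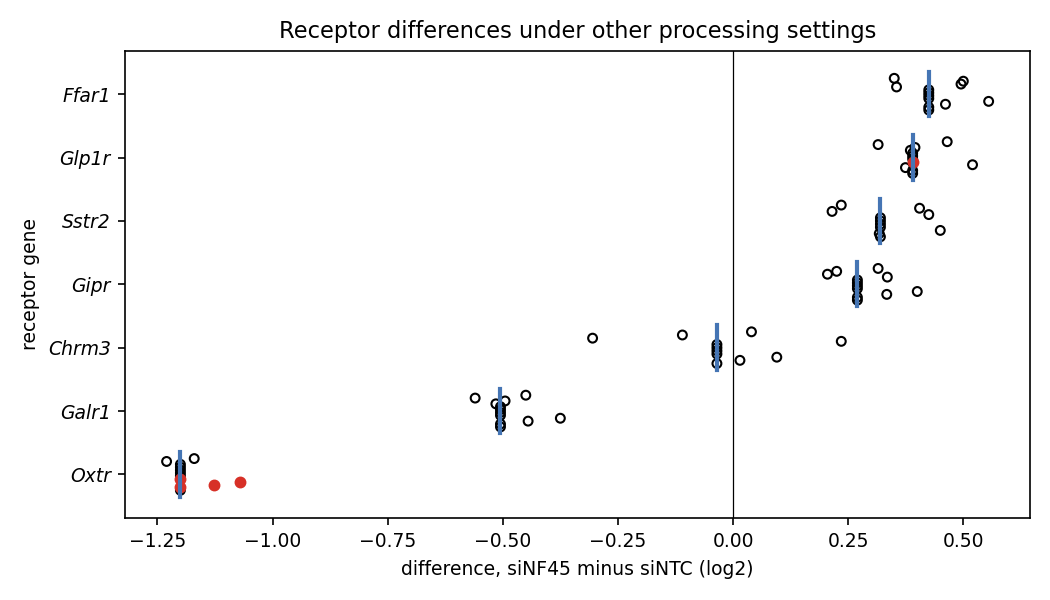
Difference between siNF45 and siNTC in log2 units (x axis) for the 7 tested receptors (y axis) under the other settings. Each circle is 1 setting, filled red where the limma adjusted p was under 0.05, and the blue bar is the value as reported. Oxtr stays between -1.23 and -1.07 and is red in 4 settings, Glp1r is red in 1, and Chrm3 lies on both sides of 0.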

How the data were processed

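Total RNA of 4 samples (2 siNTC, 2 siNF45) was measured on 1 array each. The deposited table gives 1 log2 value per probe set and array. Transcriptome Analysis Console made it, per the submitters' processing notes; for its version, summarisation, background correction and log base nothing is given in the sources used here. Values ran from 0.12 to 12.21 and were taken as log2, on which all folds rest. The number of arrays limits the precision.

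The platform annotation named 1 gene for 23521 of 41345 probe sets, several for 1814 and none here for 16010. Gene numbers of all 9 receptors matched their symbols in RefSeq (GRCm38.p6). Probe sets with a mean of at least the median (1.65) were tested, the brightest per gene, leaving 11742 genes. The comparison used limma 3.58.1 (R 4.3.3; lmFit, eBayes, no covariate) with Benjamini-Hochberg adjustment over all tested genes and a threshold of 0.05. Residual degrees of freedom were 2, with 3.69 from the prior. The script was tested on simulated data. The members and lists were chosen with earlier results of these data known. Named were all receptors, Ilf2, the ligands, Ins2 and Sst, the 3 members of each other list with the smallest p, and the 3 genes nearest to Oxtr and Galr1; other names were chosen after their values were seen. Lists got no set test. Promoter windows came from RefSeq. A planned comparison of protein sequences was not made. The replicate numbers 1 and 2 were not taken to pair samples.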

Additional observations from a re-analysis of the deposited data

How the results depend on the processing

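The count of calls moved with the scaling and the estimate of spread. As deposited, 10 genes were called (1 higher, 9 lower), against 87 with the filter at the 70th percentile, 62 after quantile normalization (18 higher, 44 lower), 172 after centring the arrays (71 and 101), 174 when eBayes used a trend, and 0 with any 1 array left out. At an unadjusted p under 0.05 the split was 472 higher and 1550 lower as deposited and 1251 and 869 after centring, which moves the median of all tested genes from -0.07 to 0.07. Receptors called numbered 0 as deposited and 1 (Oxtr) with the filter at the 70th percentile, after quantile normalization and after centring, and 2 (Oxtr and Glp1r) with a trend in eBayes. They numbered 0 without a filter, with robust eBayes, with probe sets averaged and with any 1 array left out. Receptors above background numbered 7 with the 90th percentile as limit and 4 with the 99th (without Gipr and Chrm3), against 6. At an unadjusted p under 0.05, counted after the values were seen, there were 2 receptors without siNTC replicate 1 and 3 to 6 in the other settings.

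Adding the replicate block left 0 genes and no receptor called (1909 genes had an unadjusted p under 0.05), and Ilf2 was -2.17 (limma adjusted p = 0.258); that fit has 1 residual degree of freedom. Deviations of same-numbered arrays from their group means correlated at 0.0062 over genes, which does not settle pairing. Without 1 array, the Ilf2 difference lay between -2.26 and -2.07 and its limma adjusted p between 0.307 and 0.471; the lone array of a group is then assumed to vary like the other group.

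Signs turned for Chrm3 (0.015) and Gcg (0.014) after quantile normalization and for both after centring (0.10 and 0.11). With 1 array left out, Chrm3 ran from -0.31 to 0.24 (highest where siNTC replicate 1 was dropped, and 0.04 where siNF45 replicate 2 was), Gcg from -0.18 to 0.14 (in the same cases 0.14 and 0.02) and Gip from -0.47 to 0.045, turning where siNTC replicate 2 was dropped. The cause was not tested. Of 376 alternative values of named genes, 367 kept their direction. That count says little, since the filter, eBayes and block settings leave every difference unchanged. Leaving out 1 array also cannot turn a sign where the groups do not overlap. Cckbr passed in the same 4 settings as Oxtr (limma adjusted p 0.018 to 0.041), Sst with a trend in eBayes (0.024), and Slc18a1 and Trpm5 after centring (0.040 and 0.025).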
